A study of Drosophila melanogaster with 55 samples.

Results

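The 8 core circadian clock genes per, tim, Clk, cyc, vri, Pdp1, cwo and cry of Drosophila melanogaster were examined for chromatin islands of HP1, H3K9me2, H3K9me3, Top3b and FLAG-tagged AGO2 in adult heads. They were taken by name from 13945 protein-coding genes of chromosome arms 2L, 2R, 3L and 3R and of chromosomes 4 and X. Each gene was read as its annotated span on the dm6 genome with 2-kb flanks, which is called its window here. An island is a stretch of the genome in which the authors found more ChIP-seq reads than in input DNA. Coverage is the percentage of a window that lay inside islands with a deposited score of 200 or more.

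ChIP-seq is the sequencing of DNA that an antibody pulls down with chromatin. HP1 libraries came from Top3b26;AGO2 1-1-7 double mutants (2), Top3b26 mutants (3), AGO2 1-1-7 mutants (2) and the control line w1118 (3), a strain with a mutant white gene. Top3b26 is a mutant of the DNA and RNA topoisomerase Top3b left by a remobilised P-element, and AGO2 1-1-7 is a CRISPR null of the Argonaute protein of RNA interference. H3K9me2 and H3K9me3, the histone marks that HP1 can bind, were profiled in Top3b26 (3 libraries each) and w1118 (3 each). FLAG ChIP was done in FLAG-AGO2 flies (2), in which the AGO2 gene itself carries the tag, and in untagged w1118 (1). Top3b ChIP was done in w1118 (3), with no mutant library for that antibody. A separate complementation set had 1 HP1 library each from Top3b26 flies in which an actin driver expressed wild-type Top3b, Top3b with the catalytic change Y332F, or Top3b that lacks its RGG box (dRGG), from Top3b26 alone and from w1118. Flies were 1 to 2 weeks old and kept in a light-dark cycle. The sources used here do not give the time of day at which heads were frozen, which matters for genes that cycle. Heads mix clock neurons and photoreceptors with many cells that lack a clock, so an island in a few cells and a weak island in all cells cannot be told apart. The labels number the replicates without naming separate cultures, so p-values measure the spread between these libraries, which may be technical.

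The 33 island lists were uneven. They held 585 to 11046 islands, and 3.96% to 67.8% of all gene windows met an island of score 200 or more. Among the 10 HP1 lists outside the complementation set these shares were 21.0% and 36.9% in the double mutant, 23.9%, 56.1% and 29.8% in Top3b26, 12.8% and 29.5% in AGO2 1-1-7, and 37.1%, 54.6% and 31.8% in w1118. The replicate 2 lists of Top3b26 and w1118 thus stood above the rest. HP1 replicates 2 and 3 of Top3b26 and w1118 also had a larger smallest distance between neighbouring islands (1100 bp) than the other HP1 lists (700 bp). In FLAG-AGO2 replicate 2 the score column is named as a tagged-minus-control difference, so that list is not equivalent to replicate 1. The labels conflict for 2 libraries, since the description of H3K9me3 replicate 2 in Top3b26 names H3K9me2 and that of Top3b replicate 2 names a different repeat. Title and antibody tag were followed here. Island lists give no level of Top3b or AGO2 and so do not check the mutant alleles.

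The fly clock is a transcription loop. The proteins CLK and CYC bind together to E-boxes, short DNA motifs with the letters CACGTG, and switch on per, tim, vri, Pdp1 and cwo. PER and TIM return to the nucleus and inhibit CLK and CYC, VRI represses and PDP1 activates Clk, CWO competes at E-boxes, and CRY is the blue-light receptor that leads to the loss of TIM in the morning.

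The sequences that the HP1 islands of these genes lay over were read from the dm6 reference. E-boxes are shown for per, tim and vri, since HP1 islands lay over them, and stretches with repeated triplets are shown for Clk, Pdp1 and cry, since the most widely shared islands inside Clk and Pdp1 lay over such stretches. Capitals mark the E-box CACGTG, or a run of at least 8 triplets CAG or CAA (CTG or TTG on the other strand). All are written on the strand of the gene. The per E-box is at X:2685020-2685085 upstream of the gene, the tim E-box at 2L:3507405-3507434 in a non-coding part of an exon, the vri E-boxes at 2L:5303912-5303985 in an intron, the Clk run at 3L:7764785-7764903 and the Pdp1 run at 3L:7831411-7831463 in coding exons, and the cry stretch at 3R:19210726-19210868 upstream of the gene.
per E-box: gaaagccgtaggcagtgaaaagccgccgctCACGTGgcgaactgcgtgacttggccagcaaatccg
tim E-box: acgttgtgattaCACGTGagccgatttccc
vri E-boxes: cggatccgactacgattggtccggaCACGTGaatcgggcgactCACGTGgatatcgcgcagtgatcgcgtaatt
Clk run: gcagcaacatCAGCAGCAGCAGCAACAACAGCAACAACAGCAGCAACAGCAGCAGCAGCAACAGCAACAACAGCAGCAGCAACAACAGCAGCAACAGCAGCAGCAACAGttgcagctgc
Pdp1 run: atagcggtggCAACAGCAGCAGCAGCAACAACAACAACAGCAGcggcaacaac
cry stretch: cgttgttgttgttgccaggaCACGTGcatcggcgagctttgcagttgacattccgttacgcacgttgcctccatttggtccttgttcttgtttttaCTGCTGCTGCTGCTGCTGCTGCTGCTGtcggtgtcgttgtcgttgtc

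HP1 coverage differed widely among the 8 genes and among libraries of one line. Over the 10 HP1 libraries, cry averaged 25.2% ± 23.4 (SD, n = 10) and per 17.7% ± 7.10, followed by Clk at 8.61% ± 3.68, vri at 7.72% ± 9.69, Pdp1 at 7.69% ± 11.2, cwo at 7.21% ± 16.0, cyc at 6.18% ± 7.30 and tim at 1.38% ± 2.98. Each neighbour in this order overlapped the next in its range over libraries. Among all genes, the mean of cry stood at the 89.7th percentile, that of per at the 83.5th and that of tim at the 44.8th. The windows run from 6169 bp for cyc to 59912 bp for Pdp1, so one island makes a smaller percentage in a longer window. The number of lists that shared one position gave another order, with 10 of 10 HP1 lists at per, 9 at Clk, 8 at Pdp1, 6 at cry, 5 at vri, 4 at cyc and 2 each at tim and cwo. For comparison, 7.06% of all genes had a position shared by all 10 lists and 12.9% one shared by at least 9. The shares were 17.9% for at least 8 lists, 27.9% for at least 6 and 32.9% for at least 5. A longer window holds more positions that lists can share, and these shares were not matched for length.

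**Figure D1:**
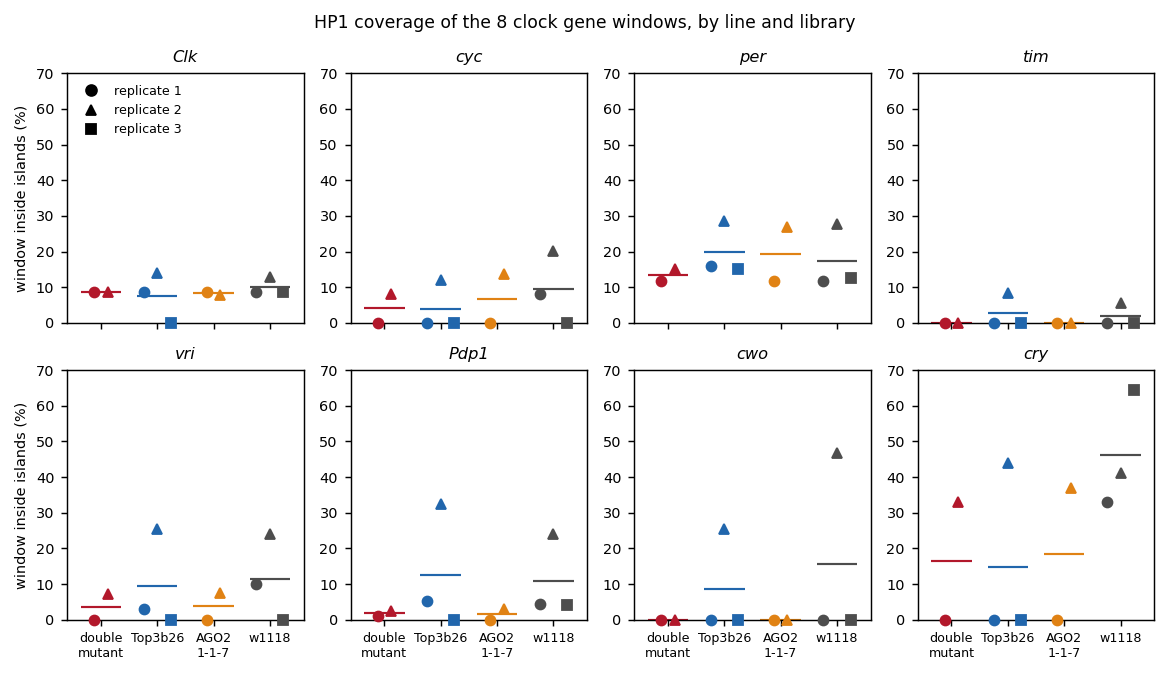
HP1 coverage of each clock gene window (y axis, percent of the window inside islands of score 200 or more) in the double mutant, Top3b26, AGO2 1-1-7 and w1118. Points are libraries, shaped by replicate number, and lines are group means. The per windows of all 10 libraries lie between 11.6% and 28.6%, while cwo and tim are above 0 only in replicate 2 of Top3b26 and of w1118.

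Of the activators, Clk carried an HP1 island inside its coding sequence. Its coverage was 8.55% and 8.55% in the double mutant, 8.55%, 14.0% and 0% in Top3b26, 8.55% and 7.94% in AGO2 1-1-7, and 8.55%, 12.8% and 8.55% in w1118. Every HP1 library except Top3b26 replicate 3 was thus covered, and the values of the mutants and w1118 overlapped. The shared interval was 3L:7764301-7765700, 1400 bp that lay wholly in Clk coding exons, and 8 HP1 lists had an island with exactly these edges. It held 2 triplet runs, the longer of 99 bases, and no E-box. CAG and CAA are both codons of glutamine, and CLK is known for a long stretch of glutamines. By contrast, the gene start of Clk was covered only in replicate 2 of Top3b26 and of w1118 among these 10.

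The same Clk interval was met by other antibodies. At least 50% of it lay in islands in all 3 Top3b lists, in H3K9me2 lists from Top3b26 (3 of 3) and w1118 (3 of 3), in FLAG-AGO2 replicate 1 and in untagged w1118. H3K9me3 covered it in Top3b26 replicates 1 and 2, the latter with a description that names H3K9me2. No w1118 library covered it at a score of 200, although w1118 replicate 1 had an island of score 187 there. In the 3 Top3b lists its island ranked within the top 5.08%, 10.0% and 0.926% of scores. No library of the complementation set had an island there. In all, 22 of the 33 lists covered it.

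The partner gene cyc was covered in 5 of the 10 HP1 libraries. Coverage was 0% and 8.11% in the double mutant, 0%, 12.0% and 0% in Top3b26, 0% and 13.6% in AGO2 1-1-7, and 8.11%, 20.1% and 0% in w1118, so every group held a library at 0. An island over the gene start was found in double mutant replicate 2, Top3b26 replicate 2 and w1118 replicates 1 and 2, at 3L:19815501-19816000 or up to 100 bp longer at either side. A second island, upstream and mostly outside the window, was found in replicate 2 of Top3b26, of AGO2 1-1-7 and of w1118, where it lay at 3L:19817301-19819300. The window held 1 E-box, which no HP1 island covered.

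The repressor gene per was the one member with HP1 in every main library. Coverage was 11.6% and 15.2% in the double mutant, 16.1%, 28.6% and 15.2% in Top3b26, 11.6% and 26.8% in AGO2 1-1-7, and 11.6%, 27.7% and 12.5% in w1118. The island spanned the gene start, and the stretch in at least 5 HP1 lists was X:2684601-2686300, from position -979 to 720 in bp from the gene start. The deposited scores there were 406 to 2039 over the 10 lists, which are not on a common scale. It lay outside coding sequence and held the E-box shown above, which begins at position -530. That E-box was inside islands in 16 of 33 lists: all 10 HP1 lists, FLAG-AGO2 replicate 1, untagged w1118, Top3b replicate 2 and 3 lists of the complementation set. The 12 H3K9me2 and H3K9me3 lists had no island over per at all, at any score.

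Its partner tim was nearly free of HP1 islands. HP1 covered 8.27% of its window in Top3b26 replicate 2 and 5.51% in w1118 replicate 2, and 0% in the other 8 HP1 libraries. Both islands lay over the 3 annotated gene starts, at 2L:3507101-3508600 in Top3b26 replicate 2 and at 2L:3507201-3508200 in w1118 replicate 2, and held the tim E-box shown above. FLAG-AGO2 replicate 1 and untagged w1118 had islands over the same place. Top3b replicate 1 had one of score 77 there, under the minimum.

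**Figure D2:**
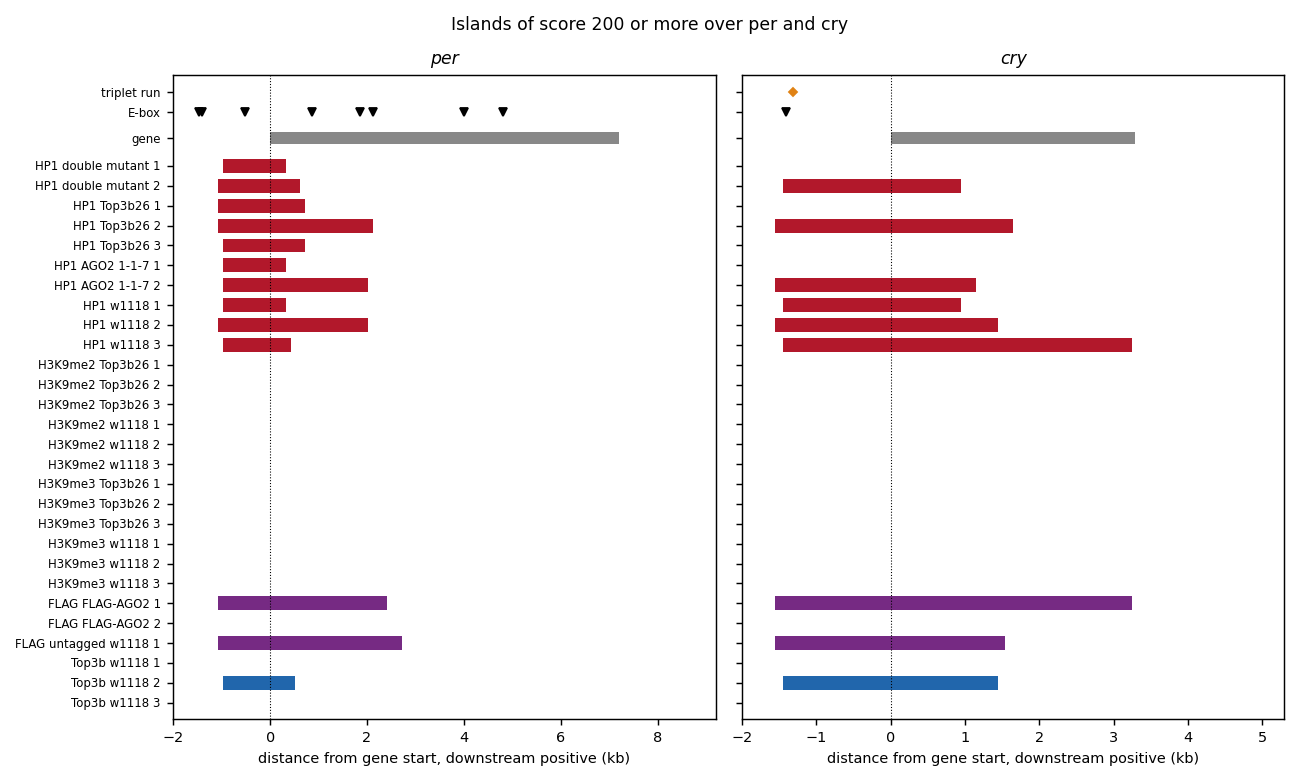
Islands of score 200 or more (bars) over per and cry in each of the 28 lists outside the complementation set, against the distance from the gene start in kb (dotted line, downstream positive). Grey bars are the genes, triangles E-boxes and diamonds triplet runs. The HP1 bars cross the start of per in all 10 lists and the start of cry in 6, and no H3K9me2 or H3K9me3 list has a bar at either gene.

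The blue-light receptor gene cry had the highest mean and the widest spread. Coverage was 0% and 32.9% in the double mutant, 0%, 43.9% and 0% in Top3b26, 0% and 37.0% in AGO2 1-1-7, and 32.9%, 41.2% and 64.5% in w1118. All 3 of these w1118 libraries were covered, whereas each mutant line had a covered library and at least 1 library at 0. The complementation set went the other way, with cry at 0% in w1118 and 35.7% in Top3b26 alone (1 library each). The shared stretch, 3R:19210701-19213100, ran from position -1453 to 946 in bp from the gene start and held the E-box and the run of 27 bases shown above. Neither H3K9me2 nor H3K9me3 reached a score of 200 there. Top3b replicates 1 and 3 had islands of score 193 and 130, and replicate 2 one of score 390.

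The genes of the second loop, vri and Pdp1, are long and carried several islands. For vri, coverage was 0% and 7.23% in the double mutant, 3.04%, 25.5% and 0% in Top3b26, 0% and 7.61% in AGO2 1-1-7, and 9.89%, 24.0% and 0% in w1118. The stretch shared by 5 HP1 lists was intronic, 2L:5301201-5301800, and another island covered the third annotated start at 2L:5305101-5307100 in replicate 2 of Top3b26, of AGO2 1-1-7 and of w1118, and 100 bp shorter in w1118 replicate 1. The pair of vri E-boxes shown above was inside HP1 islands in 3 of 10 lists.

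Pdp1 coverage was 1.00% and 2.50% in the double mutant, 5.34%, 32.4% and 0% in Top3b26, 0% and 3.00% in AGO2 1-1-7, and 4.51%, 24.1% and 4.01% in w1118. The double mutant and AGO2 1-1-7 libraries all lay under the lowest w1118 library, while Top3b26 lay on both sides. The stretch met by most lists was again coding: the 3 triplet runs between 3L:7831000 and 3L:7831453, the last of which is shown above, were inside islands in 8 of 10 HP1 lists and in 17 of 33 lists. In the 3 Top3b lists the island over this stretch ranked within the top 5.37%, 0.608% and 1.54% of scores. H3K9me2 islands lay over these runs in Top3b26 replicate 2 and in w1118 replicates 1 to 3. A separate H3K9me2 island at 3L:7817401-7819200, where no HP1 list had one, was found in Top3b26 replicates 1 and 2 and w1118 replicate 3, with the same start in Top3b26 replicate 3 and w1118 replicate 2. H3K9me2 covered the gene start only in Top3b26 replicates 2 and 3. Of the 13 E-boxes in the window, 12 were inside an HP1 island in at least 1 list, and only the one at 3L:7829820-7829825, inside the stretch 3L:7829801-7831500 that 5 lists shared, in at least 5.

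**Figure D3:**
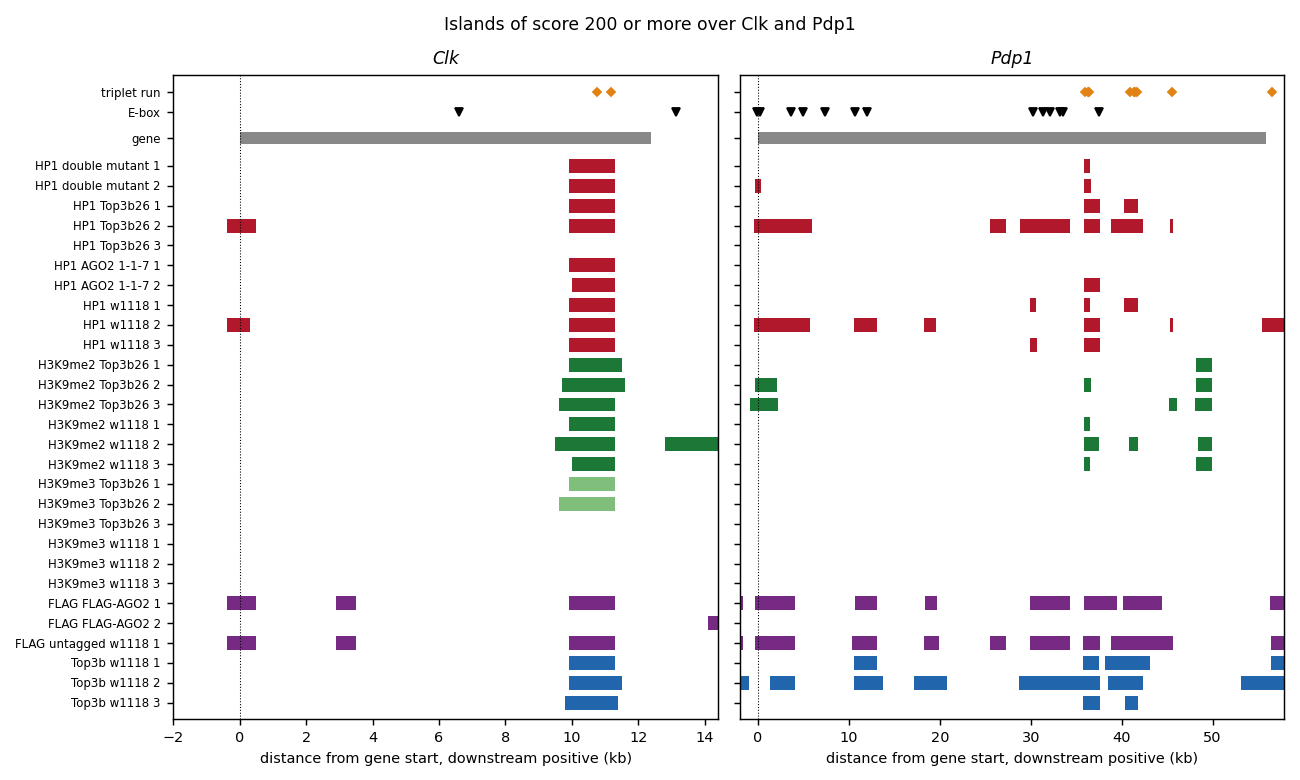
Islands of score 200 or more (bars) over Clk and Pdp1 in the 28 lists outside the complementation set, against the distance from the gene start in kb. Grey bars are the genes, triangles E-boxes and diamonds triplet runs. The bars of 9 HP1 lists, all H3K9me2 lists and all Top3b lists stack under the runs of Clk, and those of 8 HP1 lists under the first group of runs of Pdp1.

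For cwo, coverage was 25.5% in Top3b26 replicate 2 and 46.7% in w1118 replicate 2, with 0% in the other 8 HP1 libraries. Both islands began at position -1157 in bp from the gene start and reached into the gene. Top3b replicate 2 covered 31.5% of the window and H3K9me2 only 10.9% in Top3b26 replicate 3.

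Of 41 E-boxes in the 8 windows, 27 were inside an HP1 island in at least 1 of the 10 lists, 29 in the untagged FLAG list, and 3, at per, Pdp1 and cry, in at least 5 HP1 lists. The share of E-boxes inside islands was not computed over all genes. These counts, and those at single genes above, thus have no background beside them. Between 1000 bp before and 200 bp after the outermost gene start, per, Pdp1 and cwo held an E-box, as did 15.1% of all genes. Triplet runs of 24 bases or more were held by 2.04% of 1400-bp windows. These windows lay outside chromosome 4 and the pericentric heterochromatin of chromosomes 2 and 3. The 8 clock windows had 12 such runs, 2 in Clk, 9 in Pdp1 and 1 in cry. They are longer than 1400 bp, so this count and that share are not a like comparison. A match is a description of the letters only.

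Outside chromosome 4 and the pericentric heterochromatin of chromosomes 2 and 3 there were 1988 such runs. The share of these that lay in islands was compared with the share of bases in islands, as background for Clk and Pdp1. It was 22.3% and 29.7% of runs against 4.28% and 6.22% of bases in the double mutant, 40.4%, 51.8% and 7.24% against 4.26%, 12.8% and 6.48% in Top3b26, 18.9% and 35.6% against 2.35% and 5.51% in AGO2 1-1-7, and 38.8%, 41.3% and 37.9% against 6.36%, 12.2% and 7.74% in w1118. Top3b26 replicate 3, which lacked the Clk and Pdp1 islands, was thus the one HP1 list of the 10 with similar shares of runs and of bases. The share of runs also exceeded that of bases in the Top3b lists (23.2% to 34.3% of runs, 1.09% to 5.87% of bases) and in the untagged FLAG list (72.5% against 16.8%). It was below that of bases in 5 lists: the complementation libraries with wild-type Top3b (1.96% of runs against 5.17% of bases), with dRGG (4.78% against 5.24%) and of w1118 (2.01% against 4.96%), FLAG-AGO2 replicate 2 (0.302% against 0.472%) and H3K9me3 of w1118 replicate 1 (1.01% against 2.28%). The part of sequence content in the islands was not tested.

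**Figure D4:**
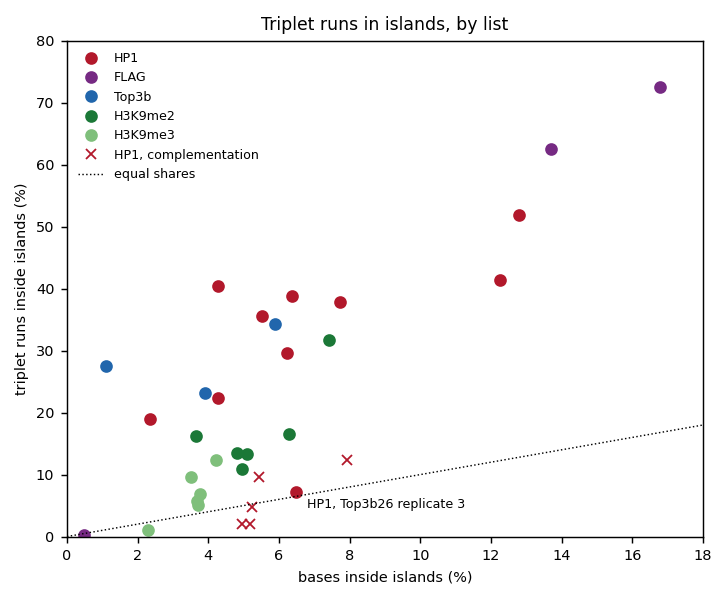
Percentage of triplet runs inside islands (y axis) against the percentage of bases inside islands (x axis) for the 33 lists, coloured by antibody, with the line of equal shares. HP1 of Top3b26 replicate 3 lies near the line at 7.24% of runs, and the other 9 HP1 lists outside the complementation set lie above it.

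Whether HP1 at these genes differs without Top3b was asked by comparing Top3b26 with w1118. The libraries of the lines overlapped at all 8 genes, so 0 of 8 were called, beside 0.244% of all genes called lower, 0.172% called higher and 0.416% in either direction. The median difference over the 8 genes was -2.11 percentage points (Top3b26 minus w1118), with 0 over all genes, many of which had no island. The mean difference was -5.37 points over the 8 genes and -0.937 over all genes. The largest mean difference was at cry, 14.6% ± 25.3 in Top3b26 and 46.2% ± 16.4 in w1118 (SD, n = 3 each), with p = 0.3 by a two-sided exact permutation test and an adjusted p of 1 over all genes. The single libraries of the complementation set, not part of this comparison, had cry at 35.7% in Top3b26 and 0% in w1118. With 3 libraries against 3 the smallest p is 0.1, so no gene could pass 0.05. Without replicate 2 of Top3b26, cry was called lower (-46.2 points), and without replicate 2 of w1118, per was called higher (7.89 points). Fewer libraries make a call easier. The share of all genes called with a library left out was not computed, here or in the comparisons below. The differences at cyc and cry kept their sign whichever library was left out, and those at the other 6 genes did not. Same-numbered libraries deviated together in this comparison, and within numbers per was higher in Top3b26 in 3 of 3 pairs, by 4.46, 0.893 and 2.68 points (mean 2.68, exact sign-flip p = 0.25, the smallest possible with 3 pairs), as were 1.10% of all genes, while 3.48% were lower in all pairs and no clock gene was.

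In AGO2 1-1-7, Pdp1 was the 1 member of 8 called lower than in w1118, and 0 were called higher. No lower call was possible at tim, cyc, vri and cwo, here or in Top3b26, since a w1118 library was at 0 for each. Over all genes, 9.90% were called lower, 0.387% higher and 10.3% in either direction, so the count of 1 is near the background. Pdp1 averaged 1.50% ± 2.12 in AGO2 1-1-7 (n = 2) and 10.9% ± 11.5 in w1118 (n = 3, SD), a difference of -9.37 points with p = 0.4 by the exact permutation test (adjusted p = 1, smallest p 0.1). The AGO2 1-1-7 lists were short throughout: mean coverage over all genes was 2.56% and 6.54%, against 7.59%, 15.9% and 10.5% in w1118. Without w1118 replicate 2 the Pdp1 difference was -2.75 points, still without overlap, so that library carried most of its size. The call on Pdp1 was lost at a minimum score of 400 and when lists were cut to equal numbers of islands. The median difference was -5.04 points over the 8 genes and -0.660 over all genes. The means were closer, at -8.04 and -6.79 points. Leaving out 1 library made 1 further call in 4 cases: Clk without AGO2 1-1-7 replicate 1, cry without AGO2 1-1-7 replicate 2 or w1118 replicate 1, and vri without w1118 replicate 3, each lower. These further calls have no share of all genes beside them.

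In the double mutant, Pdp1 was again the 1 of 8 called lower, beside 6.30% of all genes, and 0 were higher, beside 0.416% (6.72% in either direction). It averaged 1.75% ± 1.06 in the double mutant (n = 2) and 10.9% ± 11.5 in w1118 (n = 3), a difference of -9.12 points with p = 0.4 by the exact permutation test (adjusted p = 1). Without w1118 replicate 2 it was -2.50 points, still without overlap. The median difference was -6.51 points over the 8 genes and 0 over all genes. The means were closer, at -9.32 and -5.17 points. The 3 HP1 comparisons share the w1118 libraries, so their calls are not independent. Leaving out double mutant replicate 2 or w1118 replicate 1 added cry, and leaving out w1118 replicate 3 added vri, each lower and without a share of all genes beside it. With all libraries, no lower call was possible at tim, cyc, vri and cwo.

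H3K9 methylation over the clock genes was confined, in these lists and at this score, to Clk, Pdp1 and a single cwo library. H3K9me2 covered 9.77%, 11.6% and 10.4% of the Clk window in Top3b26 and 8.55%, 20.6% and 7.94% in w1118. It covered 3.00%, 8.35% and 9.85% of Pdp1 in Top3b26 and 1.00%, 7.01% and 4.01% in w1118. Values of the lines overlapped at both genes, and 0 of 8 were called, beside 1.13% of all genes (0.846% lower and 0.280% higher in Top3b26). For Pdp1 the difference was 3.06 points (p = 0.3, exact permutation test, adjusted p = 1), and it was called higher in Top3b26 without Top3b26 replicate 1. For Clk the difference was -1.77 points, and without w1118 replicate 2 it was 2.34 points with Clk called higher. Neither call with a library left out has a share of all genes beside it.

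H3K9me3 covered 8.55%, 10.4% and 0% of the Clk window in Top3b26 and 0% in all 3 w1118 libraries, with 0% at the other 7 genes in both lines. The 10.4% came from Top3b26 replicate 2, the library whose description names H3K9me2. Again 0 of 8 were called, beside 1.60% of all genes (0.0789% lower and 1.52% higher in Top3b26), and p was 0.4 for Clk by the exact permutation test (adjusted p = 1). Clk was called higher in Top3b26 without Top3b26 replicate 3, again with no share of all genes computed. That call rests in part on the library with the conflicting description. By the labels, 1 input library served both marks in each line.

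FLAG ChIP covered all 8 genes, and did so in flies without the tag. Over all genes, 62.0% of windows met an island in FLAG-AGO2 replicate 1 and 67.8% in untagged w1118. In FLAG-AGO2 replicate 1 coverage was 17.7% at Clk, 75.2% at cyc, 31.2% at per, 10.5% at tim, 53.7% at vri, 37.2% at Pdp1, 38.2% at cwo and 65.9% at cry. In untagged w1118 it was 17.7% at Clk, 85.4% at cyc, 33.9% at per, 28.7% at tim, 58.3% at vri, 42.2% at Pdp1, 48.5% at cwo and 42.5% at cry. The tagged library was thus above the untagged one at cry alone. FLAG-AGO2 replicate 2, the difference list, was at 0% for 7 genes and at 1.64% for Clk. With 1 control library no test was made.

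Top3b ChIP in w1118 met Clk and Pdp1 in all 3 libraries, at 8.55%, 9.77% and 9.77% of Clk and 17.6%, 46.9% and 5.34% of Pdp1. The other genes were covered in some libraries only: cyc at 44.4%, 23.3% and 0%, vri at 7.61%, 33.5% and 0%, per at 0%, 13.4% and 0%, cwo at 0%, 31.5% and 0%, cry at 0%, 39.8% and 0%, and tim at 0% in all 3. Replicate 2 was the highest at per, vri, Pdp1, cwo and cry. Over all genes, 17.0%, 29.1% and 3.96% of windows met an island in these lists. The minimum score of 200 kept 15.5%, 40.7% and 7.90% of their islands, against 56.8% to 99.4% in the main HP1 lists. Some values of 0% thus stand for islands under the minimum. In replicate 1 such islands had scores of 178 at per, 155 at cwo, 193 at cry and 77 at tim. In replicate 3, per, cyc, vri and cwo had no Top3b island at any score.

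In the complementation set, none of the 8 windows met an HP1 island in flies with the wild-type Top3b transgene or in w1118. With the Y332F transgene 6 windows were covered, with 15.2% at per, 35.7% at cry, 5.51% at tim, 5.48% at cyc, 3.42% at vri and 3.00% at Pdp1. With the dRGG transgene, per was at 15.2% and Pdp1 at 1.17%, and in Top3b26 alone per was at 16.1%, Pdp1 at 3.00% and cry at 35.7%. Over all genes, 31.9% of windows had an island with the wild-type transgene, 49.7% with Y332F, 34.4% with dRGG, 33.6% in Top3b26 alone and 27.9% in w1118. Each line had 1 library, so these are values with no test. The w1118 library of this set also differed at these genes from the 3 other HP1 libraries of w1118, which had islands in 6, 8 and 4 of the 8 windows.

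**Figure D5:**
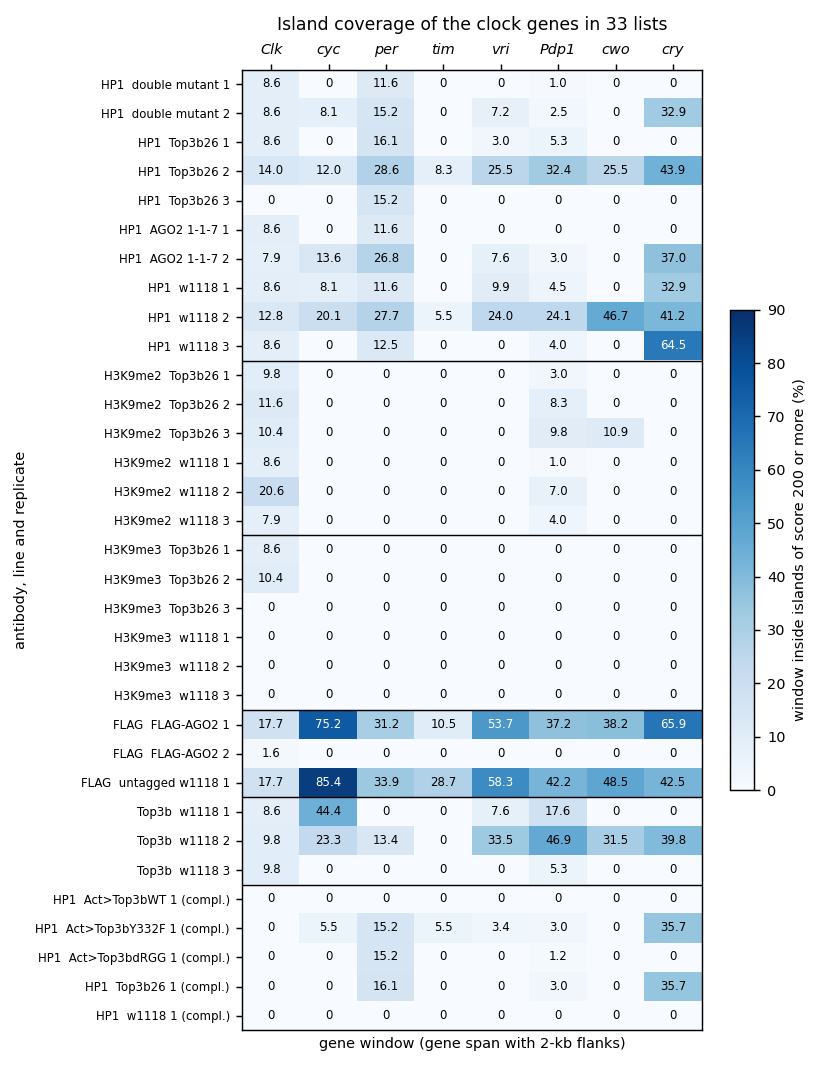
Coverage of the 8 clock gene windows (columns) in all 33 lists (rows, by antibody, line and replicate), in percent of the window and as colour. FLAG-AGO2 replicate 1 and untagged w1118 are filled at all 8 genes, the H3K9me2 rows are filled at Clk and Pdp1 and, in Top3b26 replicate 3, at cwo, and the H3K9me3 rows only at Clk in Top3b26 replicates 1 and 2.

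A wider list of 20 other circadian genes, from kinases and ubiquitin ligases to the neuropeptide Pdf and its receptor Pdfr, was read in the same way. In AGO2 1-1-7, 7 of 20 were called lower in HP1 (background 9.90%) and 0 higher. These were the kinase sgg, CkIIbeta, the regulatory subunit of the kinase CK2, the ubiquitin ligase subunit slmb, the phosphatase subunit wdb, Bdbt, a partner of the kinase that phosphorylates PER, and tyf and Atx2, which promote translation of per. Atx2 averaged 28.4% ± 2.75 in AGO2 1-1-7 and 48.6% ± 8.67 in w1118, and wdb was at 0% in both AGO2 1-1-7 libraries and at 23.2% ± 7.13 in w1118. In the double mutant 6 of 20 were lower (background 6.30%) and 0 higher: dco, the kinase that phosphorylates PER, CkIIbeta, wdb, the ubiquitin ligase ctrip, Bdbt and Atx2. For dco the means were 2.25% ± 3.18 in the double mutant and 26.7% ± 9.53 in w1118. Adjusted p-values were 1 for all, by the exact permutation test. In the 3 comparisons of Top3b26 with w1118, 0 of 20 were called. A lower call in HP1 needed every w1118 library above 0. At most 31.8% of all genes met this, the share with an island in w1118 replicate 3. Of the 20, dco, sgg, CkIIalpha, CkIIbeta, slmb, nmo, wdb, ctrip, Bdbt, tyf, Atx2 and Pdfr met it. The background share is thus not a like comparison. The windows of slmb and Bdbt overlap, so their calls are not independent. The alternatives in processing were not run on these 20 genes.

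The genes whose coverage was most like that of cry, the member with the highest mean, were CG11396, E(spl)m8-HLH and CG32259. Over the 33 lists they differed from cry by a mean absolute 4.63, 4.72 and 4.73 percentage points, against a median of 13.9 over genes.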

How the data were processed

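Island lists of 33 ChIP-seq libraries were used, and 22 input samples were not used here. Per the methods, the authors mapped reads of 50 bases to dm6 with Bowtie (the submitters' processing notes name Bowtie2 and SAMtools 1.8) and called islands over input with SICER (windows 100 bp, gaps up to 600 bp, false discovery rate below 5%). Each deposited list gives positions and a whole-number score, whose unit the sources used here do not give. As the score is not stated to be scaled for depth, it served as the minimum of 200 that the study uses and as a rank within a list, and scores printed for single islands were not compared between lists. Sequencing depth is not known, so no counting interval could be given, and list length stands in for it.

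Gene spans came from BDGP 6.54 (Ensembl 115) and sequences from the RefSeq Release 6 assembly, which is dm6. Coverage per window was computed with Python 3.11.15 and numpy 2.4.6 in scripts tested on simulated lists. Groups were called different where no library of one reached the other, with two-sided exact permutation tests adjusted over 13945 genes by the method of Benjamini and Hochberg. A shared stretch was one inside islands of at least 5 of the 10 main HP1 lists, and a list covered it where 50% or more lay in islands. Deviations from group means over all genes correlated between same-numbered libraries of HP1 in Top3b26 and w1118 (0.540, 0.588 and 0.329), so these numbers were taken to pair libraries, on this correlation alone. All 8 members were named, as were genes of the wider list that were called and the 3 genes most like the member with the highest mean HP1. The members and lists were chosen with earlier results of these data known. Alternatives were other score minimums, flanks, equal list lengths, joined islands, equal island distances, left-out libraries and a replicate block.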

Additional observations from a re-analysis of the deposited data

How the results depend on the processing

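The counts of clock genes with non-overlapping libraries are small and moved easily. For HP1 in Top3b26 the count of 0 became 5 with only lists whose smallest distance is 700 bp (1 library against 1: cry, cyc and vri lower, per and Pdp1 higher) and 1 within the replicate block. With 1 library against 1, any difference is a call, so that count is no evidence of a difference between lines. In AGO2 1-1-7 the count of 1 became 0 at a minimum score of 400 and with an equal number of islands, where the Pdp1 difference was -8.43 and -7.70 points, 2 with only 700-bp lists and 4 with the replicate block. In the double mutant it became 2 with only 700-bp lists and 4 with the replicate block. For H3K9me2 the replicate block gave 1 (Pdp1 higher). Outside HP1 in Top3b26, the block rests on replicate numbers that were not shown to pair libraries. Except for the block of HP1 in Top3b26, the share of all genes called was not computed under these alternatives. Leaving out 1 library gave counts of 0 to 1 for HP1 in Top3b26, 1 to 2 in AGO2 1-1-7, 1 to 2 in the double mutant, 0 to 1 for H3K9me2 and 0 to 1 for H3K9me3. Signs also turned, at genes that were not called. Leaving out 1 library gave, for HP1 in Top3b26, -1.64 to 7.89 points at per, -1.84 to 2.76 at tim, -5.70 to 1.32 at Clk, -9.77 to 4.57 at vri, -8.20 to 8.32 at Pdp1 and -15.6 to 8.49 at cwo. It gave -9.39 to 4.19 at cyc and -5.65 to 9.52 at per in AGO2 1-1-7, -6.70 to 1.34 at per in the double mutant and -3.97 to 2.34 for H3K9me2 at Clk. With only 1100-bp lists vri was 0.761 in Top3b26. In AGO2 1-1-7, Clk was 2.55 and cyc 3.34 with an equal number of islands, cyc was 0.103 at a minimum score of 400, and per was -0.446 with the replicate block. With only 700-bp lists per was 1.79 in the double mutant. H3K9me2 at Clk was 4.07 at a minimum score of 400, 1.89 without flanks and 1.43 with an equal number of islands. Of the single-gene values under all alternatives, 481 kept their sign, or were 0, and their call, 26 became non-overlapping, 2 ceased to be so and 27 reversed in sign. The cause of these changes was not tested, except that fewer libraries make a call easier.

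Outside HP1 in Top3b26 the replicate numbers are only names. With 2 pairs, both libraries of a line must give the same correlation, which was 0.259 in AGO2 1-1-7 and 0.336 in the double mutant. Any value above 0 there makes each library closest to its own number by construction. For H3K9me2 (0.192, -0.210 and -0.117) and H3K9me3 (0.166, 0.0804 and -0.00599) the correlations were not all above 0.1. Lists differ in length and in island distance, and windows hold parts of neighbouring genes.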
